A study of Penicillium oxalicum with 9 samples.

Results

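The response shared by both deletion strains was the set of genes whose transcript level lay on the same side of the wild type in all 6 deletion libraries of the fungus Penicillium oxalicum. A gene was a member when its 6 values in the clrB and rcoA deletion strains all lay above, or all below, its 3 wild type values, and its mean over the 9 libraries reached 1 FPKM (a read level scaled for transcript length and library size). Of 9907 genes in the table, 9097 reached that mean, and 2204 of these were members, 24.2%. The members comprised 1295 genes higher in both deletions, 14.2% of the genes tested, and 909 lower in both, 9.99%. The members were thus chosen by the FPKM values of the 3 strains, and every difference of a deletion from the wild type is given as a description with no test. The clrB deletion libraries were not set against the rcoA deletion libraries by the rule, and that contrast was tested, although lying on one side of the wild type limits how far both strains can differ.

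Each of 3 strains gave 3 libraries: the wild type 114-2, a clrB knockout and an rcoA knockout. All were grown from spores for 22 h at 30 °C on 2% glucose. The washed mycelia were then kept for 24 h in Mandel's medium on 1% wheat bran and 1% cellulose. No strain in these groups carried both deletions, and the labels do not say how many independent transformants each deletion strain stands for. Separate cultures are not stated either, so errors and p-values reflect library spread that may be technical.

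Filamentous fungi of this kind secrete cellulases, xylanases and oxidative enzymes that break plant cell wall polymers into soluble sugars. ClrB is a zinc binuclear cluster activator needed for full cellulase gene expression, XlnR activates xylanase and cellulase genes, and the zinc finger protein CreA represses such genes while glucose is present. RcoA belongs to the Tup1 family of corepressors, which do not bind DNA themselves but are brought to promoters by repressors that do.

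The gene described as ClrB matched its label. ClrB (PDE_05999) had 191, 200.2 and 163 FPKM in the wild type, 0.11, 0.11 and 0.08 in the clrB deletion and 57.7, 62.3 and 69.8 in the rcoA deletion. PDE_01024, described as the repressor TUP1, had 67.3, 65.5 and 70.7 FPKM in the wild type. It had 65.9, 67.6 and 68.4 in the clrB deletion and 2.08, 2.67 and 3.38 in the rcoA deletion. Other genes share that description, and PDE_01024 was singled out by its fall in the rcoA deletion. Its values therefore cannot also serve as a check of that label. A library's values summed to between 776855 and 820648 FPKM, between 9597 and 9724 genes were above 0, and depth in reads is unknown because FPKM keeps no read totals. Replicate 2 of the clrB deletion stood apart, with correlations of log2(FPKM + 1) across genes of 0.946 and 0.957 with its 2 partners, which correlated at 0.991 with each other. It was the clrB deletion library nearest the wild type mean at 1227 members, 55.7%, and at 47.1% of all genes tested. Leaving it out only relaxes the rule, so all 2204 members were bound to stay, and the totals became 1822 higher and 1339 lower.

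Most members differed moderately from the wild type, and by more in the rcoA deletion. On the log2(FPKM + 1) scale used for all differences here, the median absolute difference from the wild type was 0.46 for the clrB deletion and 0.87 for the rcoA deletion, against 0.25 and 0.55 over all genes tested. Both differences reached 1, a doubling or halving, at 216 members, of which 85 were higher and 131 lower. Over all genes tested, 2.64% lay that far from the wild type in the same direction in both strains. Both reached 4-fold at 37 members, 10 higher and 27 lower. At 593 members both stayed under 1.5-fold. Of the 100 genes with the highest wild type mean, 33 were lower and 4 were higher members. Of the 100 with the highest rcoA deletion mean, 6 were lower and 21 higher, and ranking on a strain favours genes that are high in it. Lower members together held 21.1% of the wild type FPKM sum, 9.9% of that of the clrB deletion and 6.33% of that of the rcoA deletion. Higher members held 7.68%, 12.4% and 18.4%. These sums run over genes whose length scaling may differ. In such bulk samples, less RNA per cell and fewer cells of a kind cannot be told apart. The balance between higher and lower members depended on the scaling: 58.8% of members were higher as deposited, 47.8% after trimmed mean scaling, 52.3% with equal medians and 52.2% after quantile normalization.

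**Figure D1:**
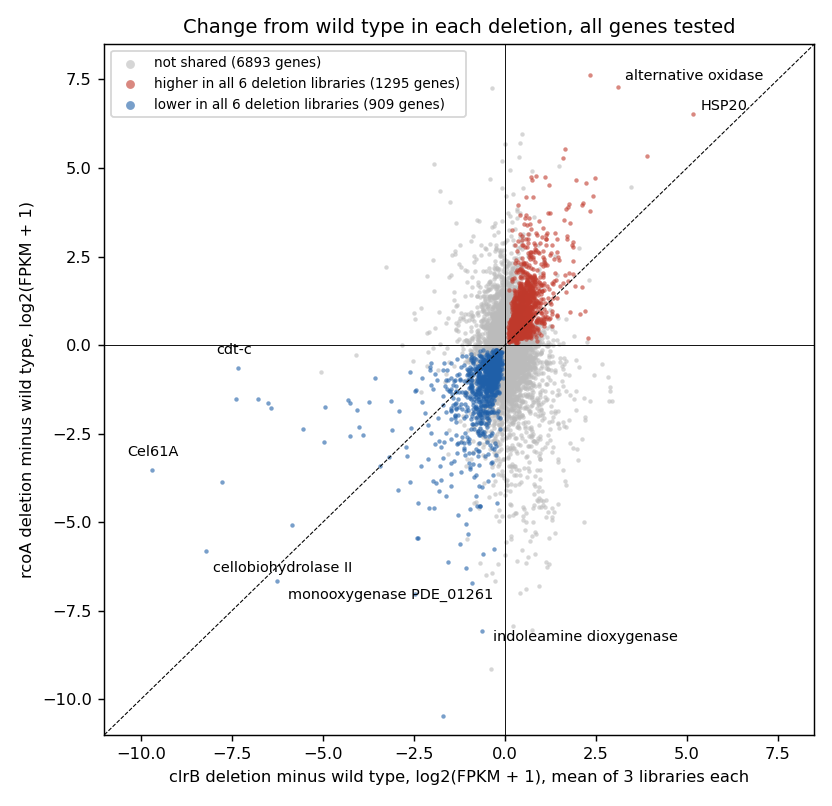
Each point is 1 of 9097 genes, placed by its log2(FPKM + 1) difference from the wild type in the clrB deletion (x axis) and the rcoA deletion (y axis), each a mean of 3 libraries against 3. The 1295 higher members (red) and 909 lower members (blue) lie in the upper right and lower left by the rule that chose them, grey points are the other genes, and the dashed line marks equal changes.

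The order rule left members at its edge. At the minimum level, the hexokinase gene PDE_09139, with a mean of 1.15 FPKM, was the higher member nearest to 1 FPKM, and PDE_06396, at 0.973, was just outside. The lower side had PDE_10012 inside at 1.01 and PDE_00571 outside at 0.906. In all, 21 genes met the higher order and 34 the lower order below that mean. The narrowest higher member was PDE_04533, whose lowest deletion value of 139.65 FPKM stood against a highest wild type value of 139.64. The narrowest lower member was PDE_01968, at 49.4 in clrB deletion replicate 3 against 49.41 in wild type replicate 3. PDE_09351 and PDE_08934 missed the rule because a deletion value equalled a wild type value, at 26.63 and 7.65 FPKM. A gap of under 0.1 on the log2 scale between the nearest deletion and wild type values was seen at 829 members, and 77 had a gap of at least 1.

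The list for cellulose breakdown had the largest share of lower members of the 29 gene lists examined. Its 44 tested genes matched words for cellulases, cellobiohydrolases, beta-glucosidases or cellulose monooxygenases. Of these, 19 were lower in both deletions, 43.2% against 9.99% of all genes, and 2 were higher. The list's median difference from the wild type was -1.33 for the clrB deletion and -0.83 for the rcoA deletion, against 0.08 and -0.04 over all genes. Both differences were at least 2-fold at 14 of the 19. All lists are word searches in the deposited descriptions, which are automated. The 19 include PDE_00014 and PDE_00016, named below as a putative xylanase and an arabinofuranosidase. They also include PDE_00248 and PDE_09218, described as SUN family beta-glucosidases. Shares in every list are read against 14.2% higher and 9.99% lower over all genes. The 19 lower cellulose genes stayed 19 in number under trimmed mean scaling and equal medians, and were 20 under quantile normalization and 23 without clrB deletion replicate 2. The other 23 tested genes were not members. Of these, 8 had the rcoA deletion libraries alone below the wild type and 4 had them alone above it, 18.2% and 9.09% of the list against 24.1% and 18.4% of all genes. The clrB deletion libraries alone were below it at 3 and above it at 1, 6.82% and 2.27% against 2.41% and 5.01%. At 5 genes the strains lay on opposite sides, 11.4% against 7.26%, and at 2 neither strain lay clear of the wild type.

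Cellobiohydrolase II (PDE_07124), which releases cellobiose from the ends of cellulose chains, had 4099.5, 4029.8 and 3015 FPKM in the wild type. The values were 13.5, 11.4 and 9.64 in the clrB deletion and 46.9, 62.8 and 90.8 in the rcoA deletion. Its mean was 323-fold and 55.6-fold lower, with no overlap between any of the strains. The cellobiohydrolase PDE_07945, the member of the cellulose list with the highest mean, had 7355, 7377 and 5499 FPKM in the wild type. It had 259.6, 812 and 342 in the clrB deletion and 1220, 1334 and 1537 in the rcoA deletion. The clrB deletion mean was 14.3-fold lower, or 22.4-fold lower without its replicate 2, and the rcoA deletion mean was 4.95-fold lower. Endoglucanases cut within cellulose chains. Cel5C (PDE_09969) had 1292, 1284 and 983 FPKM in the wild type, 20.7, 17.4 and 19.97 in the clrB deletion and 26.5, 32.9 and 45.7 in the rcoA deletion. Every deletion value of Cel5C was far under every wild type value, and the clrB deletion values were the lowest. Values with ± are means and SDs (n = 3 libraries), always ordered as wild type, clrB deletion, rcoA deletion. PDE_09226, a putative endo-beta-1,4-glucanase, had 3057 ± 722, 12.9 ± 1.95 and 213 ± 68.5 FPKM. Cel7B (PDE_07929) had 2068 ± 664, 71.7 ± 44.04 and 595 ± 48.9. The consecutive identifier PDE_07928, a glycoside hydrolase 45 protein, had 2027 ± 382, 52.4 ± 44.4 and 385 ± 40.1. Its fold in the clrB deletion was 38.7, or 75.6 without replicate 2, where it stood at 104 FPKM.

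Lytic polysaccharide monooxygenases cleave cellulose by oxidation, and 2 of them followed different patterns. Cel61A (PDE_05633) had 4514, 4322 and 3896 FPKM in the wild type, 4.51, 3.09 and 5.14 in the clrB deletion and 227, 387 and 553 in the rcoA deletion. It was 999-fold lower in the clrB deletion and 10.9-fold lower in the rcoA deletion, and these strains differed from each other by -6.15 on the log2 scale (limma, adjusted p = 4e-07). The putative monooxygenase PDE_01261 had 1151, 1121 and 713 FPKM in the wild type, 7.51, 26.2 and 7.99 in the clrB deletion and 6.91, 9.07 and 10.4 in the rcoA deletion. It was 71.6-fold lower in the clrB deletion, 128-fold without replicate 2, and 113-fold lower in the rcoA deletion, and the 2 deletion groups overlapped (difference 0.40, limma, adjusted p = 0.421). The neighbouring identifier PDE_01260, which has no description, had 88.9 ± 25.6, 16.3 ± 13.3 and 5.1 ± 1.35 FPKM. Members that act on cellobiose were lower as well: the glycoside hydrolase family 1 protein PDE_00579, described as a beta-glucosidase, had 991 ± 218, 7.93 ± 1.99 and 337 ± 39.5, and the beta-glucosidase PDE_04859 had 167 ± 20.7, 33.4 ± 3.46 and 54.5 ± 6.61. The higher members of the list were a pair. PDE_09014, described as a xyloglucan-specific endoglucanase, had 36.2 ± 1.95, 58.7 ± 9.48 and 109.8 ± 9.86 FPKM, and the putative beta-glucosidase PDE_03485 had 19.5 ± 2.1, 21.96 ± 0.417 and 28.2 ± 0.825.

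**Figure D2:**
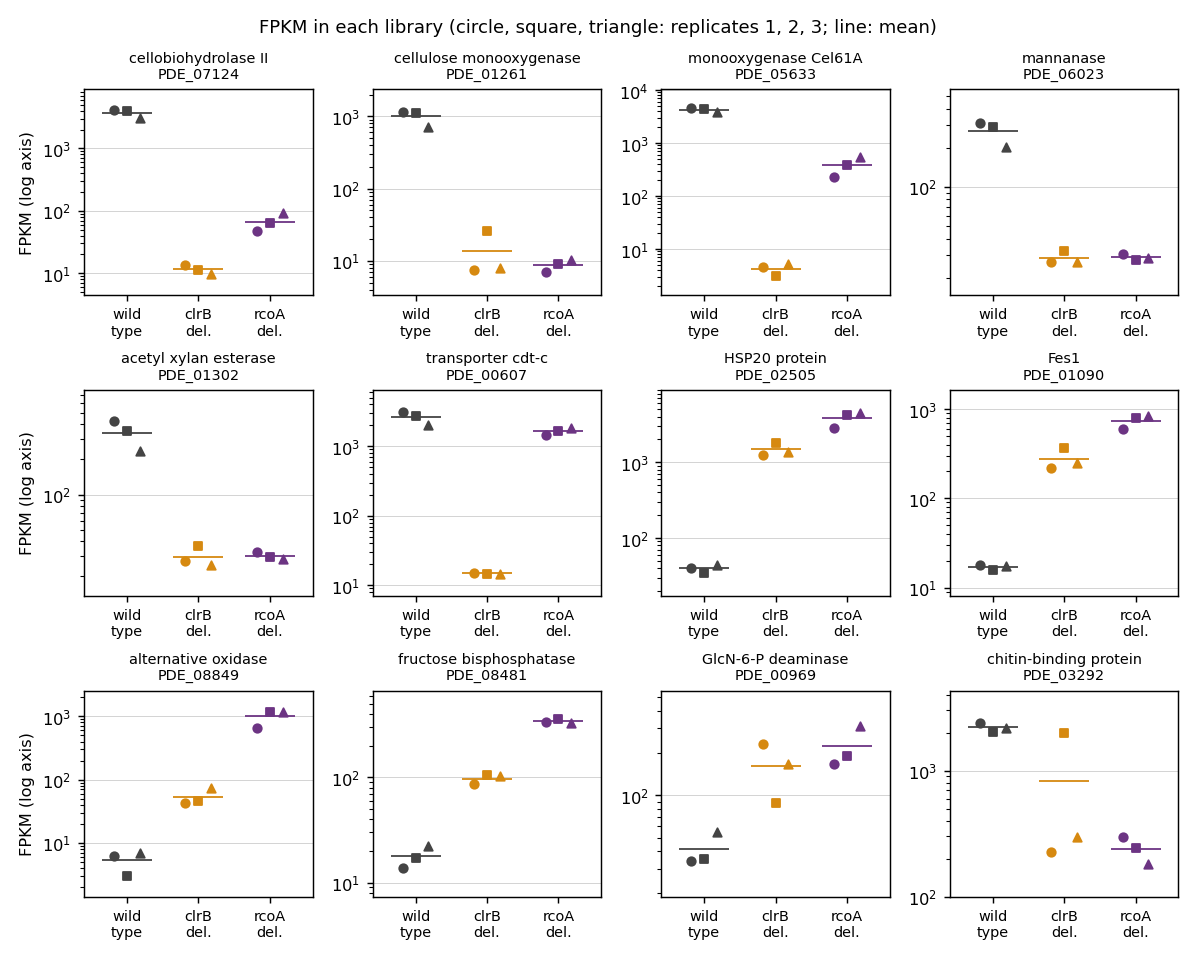
FPKM of 12 members in each of the 9 libraries (log axis, with a scale of its own in each panel); circles, squares and triangles are replicates 1, 2 and 3 and lines are means. The rule puts the wild type values of every panel on one side of the deletion values, though narrowly for the chitin-binding protein PDE_03292, where clrB deletion replicate 2, at 1971 FPKM, is just under the lowest wild type value and replicates 1 and 3 are at 228 and 295.

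Hemicellulose and pectin enzymes also had more lower than higher members. Of 75 tested genes for hemicellulose breakdown, 19 were lower in both deletions, 25.3%, and 4 were higher. This list and the cellulose list share 9 tested genes. The mannanase PDE_06023, which cuts mannan chains, had 312, 288 and 204 FPKM in the wild type, 26.6, 32.3 and 26.6 in the clrB deletion and 30.5, 27.4 and 28.6 in the rcoA deletion. The acetyl xylan esterase PDE_01302, which removes acetyl groups from xylan, had 424, 347 and 236 FPKM in the wild type, 27.1, 36.4 and 25.1 in the clrB deletion and 32.6, 29.2 and 28.2 in the rcoA deletion. Both genes were thus lower by 9.4-fold to 11.4-fold in the clrB deletion and by 9.29-fold to 11.2-fold in the rcoA deletion, and the deletion libraries overlapped (limma, adjusted p = 0.918 and 0.896 for clrB deletion against rcoA deletion). The family 10 xylanase PDE_08094 had 1970.4 ± 549, 125 ± 107 and 327 ± 49.04 FPKM. Xylanase B (PDE_02101) had 526 ± 102, 44.1 ± 12.4 and 274 ± 23.8, and the putative feruloyl esterase PDE_06649, which frees ferulic acid from xylan, had 1335 ± 338, 88.6 ± 61.3 and 362 ± 6.25. The beta-mannosidase PDE_05998, whose identifier precedes that of ClrB, had 127 ± 35.9, 13.6 ± 5.01 and 40.4 ± 4.25. The alpha-xylosidase PDE_03010 had the opposite balance, with 118 ± 3.7, 75.1 ± 18.6 and 22.4 ± 0.454 FPKM, and was lower in the rcoA deletion than in the clrB deletion (1.67 between the deletions, limma, adjusted p = 2.5e-05). Among the 4 higher members, the putative endo-beta-1,4-xylanase PDE_09478 had 3.01 ± 0.507, 9.49 ± 6.19 and 51.4 ± 0.695.

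Pectin breakdown had 6 lower and 0 higher members of 29 tested genes, 20.7% lower. The rhamnogalacturonan lyase PDE_01385, which splits the branched part of pectin, had 52.7, 41.8 and 33.7 FPKM in the wild type, 5.28, 6.2 and 5.13 in the clrB deletion and 3.75, 5.13 and 5.76 in the rcoA deletion. The endopolygalacturonase PDE_04162, which cuts the smooth part of pectin, had 111 ± 15.9, 19.3 ± 4.59 and 44.6 ± 7.39, and the polygalacturonase PDE_07153 had 47.4 ± 18.9, 13.1 ± 1.95 and 13.1 ± 1.63. The exo-beta-1,3-galactanase PDE_01468, which is in none of the lists, had 33.8, 37.8 and 28.8 FPKM in the wild type, 0.09, 0.15 and 0.03 in the clrB deletion and 2.53, 3.88 and 6.81 in the rcoA deletion. Starch breakdown had 3 lower and 1 higher of 18, 16.7% and 5.56%. The alpha-amylase PDE_01201 had 1405 ± 135, 949.6 ± 231 and 507 ± 48.2, and it did not keep the order after quantile normalization. PDE_01354, which has a starch binding and a chitin binding domain, had 1019 ± 176, 192 ± 17.5 and 44.9 ± 3.73.

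**Figure D3:**
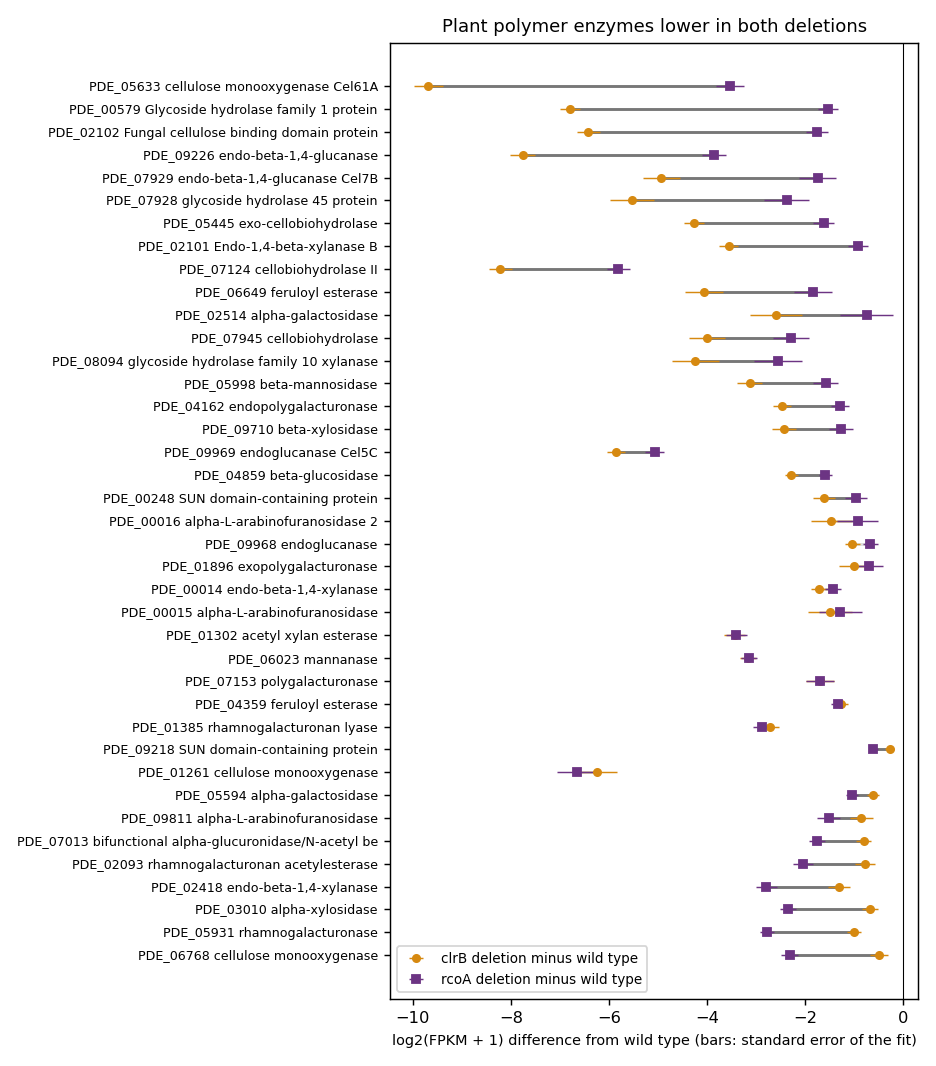
Log2(FPKM + 1) difference from the wild type in the clrB deletion (circles) and the rcoA deletion (squares) for the 39 lower members of the cellulose, hemicellulose and pectin lists, with the standard error of the fit as bars. Dark connecting lines mark the genes with an adjusted p under 0.05 between both deletions, 19 with the larger clrB change and 9 with the larger rcoA change, and 11 genes were not called.

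Over these 3 lists of plant polymer enzymes, 39 genes were lower members, among them PDE_00248 and PDE_09218, described as SUN family beta-glucosidases, and 5 were higher members. The lists rest on words in the descriptions, and whether each gene acts on plant polymers was not checked. In the test of the clrB deletion against the rcoA deletion, 19 of the 39 had the larger change in the clrB deletion, 9 had it in the rcoA deletion and 11 were not called. Of all 2204 members, the test called the clrB change larger at 87 and the rcoA change larger at 1190.

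Of 58 tested sugar transporters, 10 were lower and 7 higher members, 17.2% and 12.1% against 9.99% and 14.2% of all genes. A further 20, 34.5%, had the rcoA deletion libraries alone below the wild type, against 24.1% of all genes. The cellodextrin transporter cdt-c (PDE_00607), which takes up short glucose chains, had 3106, 2694 and 2010 FPKM in the wild type, 15.1, 14.7 and 14.7 in the clrB deletion and 1461, 1636 and 1809 in the rcoA deletion. The clrB deletion mean was 176-fold lower and the rcoA deletion mean 1.59-fold lower, a difference between the strains of -6.69 (limma, adjusted p = 9.5e-09), and after quantile normalization the gene did not keep the order. The transporter CdtD (PDE_00753) had 1040.1 ± 238, 247 ± 179 and 535 ± 23.7 FPKM in the same order. The alpha-glucoside symporter PDE_06576 had 289 ± 82.2, 13.9 ± 5.59 and 96.2 ± 2.71. PDE_08035, another sugar transporter of the same superfamily, was lowest in the rcoA deletion, at 217 ± 35.7, 97.3 ± 40.2 and 31.3 ± 0.835. Among the higher members, the putative myo-inositol transporter PDE_03530 had 68.3 ± 4.94, 87.5 ± 10.8 and 107 ± 8.45 and did not keep the order under trimmed mean scaling. The sugar symporter PDE_04131 had 7.84 ± 0.591, 17.5 ± 1.68 and 44.02 ± 1.87.

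Of 18 tested regulators of carbon use, 2 were lower, 3 higher and 13 not members. The shares of 11.1% lower and 16.7% higher are near the 9.99% and 14.2% of all genes. ClrB itself was a lower member, deleted in one strain, and in the rcoA deletion it was 2.92-fold lower. XlnR (PDE_07674) had 73.98, 73.9 and 59.1 FPKM in the wild type, 41.7, 58.6 and 47.95 in the clrB deletion and 32.5, 31.4 and 31.8 in the rcoA deletion. The rcoA deletion values of XlnR were all below the clrB deletion values, a difference of 0.60 (limma, adjusted p = 0.00435). CreA (PDE_03168) had 352, 349.8 and 303 FPKM in the wild type, 395, 384 and 393 in the clrB deletion and 754, 778 and 785 in the rcoA deletion. CreA was thus 1.17-fold and 2.31-fold higher, and the difference between the deletions was -0.98 (limma, adjusted p = 3.52e-05). Of the other genes described as TUP1, PDE_07598 was a higher member at 4.84 ± 0.701, 7.05 ± 0.999 and 7.36 ± 1.51 FPKM, and PDE_00660 and PDE_08941 were not members. Among 74 genes described as transcription factors, 13 were higher and 3 lower, 17.6% and 4.05%. The zinc finger protein PDE_07902 had 47.5, 46.5 and 45.99 FPKM in the wild type, 151, 162 and 171 in the clrB deletion and 573, 805 and 949.6 in the rcoA deletion, 3.46-fold and 16.6-fold higher.

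Heat shock proteins and chaperones were more often higher than lower members. Of 63 tested genes, 18 were higher in both deletions, 28.6% against 14.2% of all genes, and 4 were lower. The lower member with the highest mean, DnaJ (PDE_04788), had 81.5 ± 6.84, 60.2 ± 4.74 and 63.9 ± 1.87 FPKM. Small heat shock proteins of the HSP20 family hold unfolded proteins in solution. PDE_02505 of this family, the higher member whose lesser change of both strains was the largest, had 40.3, 34.99 and 44.1 FPKM in the wild type. It had 1246, 1807 and 1385 in the clrB deletion and 2799.6, 4234 and 4431 in the rcoA deletion, which is 37.2-fold and 96.04-fold higher. A second member of the family, PDE_00175, had 328, 367 and 245 FPKM in the wild type, 871, 1145 and 854 in the clrB deletion and 2492, 4113 and 4592 in the rcoA deletion. In both genes every rcoA deletion value was above every clrB deletion value. Fes1 (PDE_01090), which releases ADP from the chaperone Hsp70, had 17.9, 15.8 and 17.5 FPKM in the wild type, 216, 368 and 247 in the clrB deletion and 596, 793 and 839 in the rcoA deletion. Other chaperones had much higher means in the rcoA deletion than in the clrB deletion. ClpB (PDE_00624), which pulls proteins out of aggregates and is outside this list, had 15.6 ± 1.77, 51.95 ± 8.51 and 766 ± 103 FPKM. The Hsp70 gene PDE_02379 had 263 ± 17.3, 361 ± 19.6 and 2249 ± 149, and the Hsp90 gene PDE_09149, described as HtpG, had 191 ± 7.08, 246 ± 18 and 1465 ± 116. The chaperonin GroEL (PDE_04315) had 72.7 ± 6.53, 102 ± 18.4 and 404 ± 53.8. DnaK (PDE_03760) had 53.8 ± 2.93, 88.5 ± 14.2 and 339.7 ± 19.02, and its partner GrpE (PDE_08711) had 21.7 ± 3.84, 56.95 ± 2.07 and 203 ± 22.6. Of the 22 members in this list, 19 had the larger change in the rcoA deletion by the test, 0 in the clrB deletion, and 3 were not called. Over all 2204 members these counts were 1190, 87 and 927, and the test called 60.1% of all genes. Values of near-identical copies are uncertain, since reads may have been split among them.

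Mitochondrial lists had more higher than lower members, and most of their genes were not members. The respiration list had 24 higher and 1 lower of 89 tested, 27% higher, with 64 not members, and 41 higher without clrB deletion replicate 2. The lower one, the NADH dehydrogenase PDE_00323, had 19.7 ± 1.16, 15.4 ± 0.876 and 10.7 ± 1.38 FPKM. The alternative oxidase PDE_08849, which passes electrons to oxygen without pumping protons, had 6.29, 3.04 and 7.04 FPKM in the wild type, 43.04, 45.3 and 73.9 in the clrB deletion and 652, 1185 and 1173 in the rcoA deletion. It was 9.91-fold and 184-fold higher, with no overlap between the strains. Succinate dehydrogenase subunits PDE_07264 and PDE_01648 link the citrate cycle to the respiratory chain. PDE_07264 had 179 ± 13.5, 244 ± 9.96 and 377 ± 10.4, and PDE_01648 had 98.1 ± 7.43, 129 ± 7.05 and 273 ± 3.85. The ATP synthase alpha subunit PDE_06476 had 419.7 ± 9.08, 462 ± 15.99 and 564 ± 5.86, and it did not keep the order under trimmed mean scaling or equal medians. Of 22 genes for mitochondrial protein import and carriers, 6 were higher, 27.3%, 0 were lower and 16 were not members, and the higher ones included the import subunit TIM17 (PDE_08910), at 47.5 ± 3.07, 84.9 ± 10.1 and 346 ± 53.5. The mitochondrial trans-2-enoyl-CoA reductase PDE_07004 had 5.63, 4.02 and 4.5 FPKM in the wild type, 42.5, 13.6 and 36.5 in the clrB deletion and 1044, 1167 and 1163 in the rcoA deletion. Its difference between the deletions was -5.29 (limma, adjusted p = 2.54e-06).

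Central carbon metabolism had higher members in the pathways of sugar synthesis and oxidation. The glycolysis and gluconeogenesis list had 9 higher and 0 lower of 26 tested genes, 34.6% higher, and the citrate and glyoxylate cycle list had 10 higher and 1 lower of 33, 30.3% higher. Fructose-1,6-bisphosphatase (PDE_08481), which acts only in the direction of glucose synthesis, had 13.8, 17.1 and 22.3 FPKM in the wild type, 86.3, 104 and 102 in the clrB deletion and 337, 355 and 332 in the rcoA deletion. This gene belongs to none of the lists and was 5.51-fold and 19.3-fold higher. Phosphoenolpyruvate carboxykinase (PDE_08878), the entry step of the same route, had 109.6, 110.3 and 134 FPKM in the wild type, 141, 216 and 156 in the clrB deletion and 1136, 1399.6 and 1274 in the rcoA deletion. Its clrB deletion values lay nearer the wild type than the rcoA deletion, and it did not keep the order under trimmed mean scaling or quantile normalization. The hexokinase PDE_08226 had 22.3 ± 2.14, 65.5 ± 25.3 and 58.2 ± 15.5 (limma, adjusted p = 0.749 between the deletions). The citrate synthase PDE_09135 had 59.2 ± 7.39, 80.7 ± 11.1 and 291 ± 40.05, and the aconitate hydratase PDE_08183 had 144 ± 9.11, 194 ± 9.93 and 337 ± 14.8. The glyoxylate cycle enzyme isocitrate lyase (PDE_03451) was highest in the clrB deletion, at 32.7 ± 1.71, 50.4 ± 7.12 and 38.7 ± 1.25.

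Among the higher members were 3 genes with nearby identifiers whose descriptions concern N-acetylglucosamine, the building block of chitin. They belong to no list, and the group was put together after the values were seen. Glucosamine-6-phosphate deaminase (PDE_00969) had 33.9, 35.1 and 54.7 FPKM in the wild type, 232, 88.4 and 166 in the clrB deletion and 166, 191 and 311 in the rcoA deletion. The values of both deletion strains overlapped and lay above the wild type, with clrB deletion replicate 2 the lowest of the 6. The N-acetylglucosamine-6-phosphate deacetylase PDE_00965 had 25.7, 30.1 and 46.9 FPKM in the wild type, 194, 64.3 and 124 in the clrB deletion and 116, 123 and 192 in the rcoA deletion. The beta-N-acetylhexosaminidase PDE_00970 had 46.7 ± 4.91, 68.9 ± 2.88 and 80.1 ± 12.7. These identifiers lie close together in the table, with the choline oxidase PDE_00966 and the betaine-aldehyde dehydrogenase PDE_00968 between them also higher members, while PDE_00964 and PDE_00967 were not members.

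Ribosome biogenesis had the largest share of higher members of the 29 lists. Of 84 tested genes for ribosome assembly and rRNA processing, 52 were higher in both deletions, 61.9%, and 3 were lower. The median difference over the list was 0.60 for the clrB deletion and 1.13 for the rcoA deletion. The count of higher members was between 46 and 49 under the 3 other scalings and 60 without clrB deletion replicate 2. Nucleolar protein 56 (PDE_04970), part of the complexes that guide rRNA methylation, had 36.2, 36.6 and 39.4 FPKM in the wild type, 79.3, 45.6 and 69.6 in the clrB deletion and 96.8, 122 and 136 in the rcoA deletion. Replicate 2 was the clrB deletion library nearest the wild type. Nucleolar protein 58 (PDE_05114), its partner, had 19.1 ± 1.81, 32.7 ± 8.23 and 73.4 ± 9.08, and BRX1 (PDE_04547), needed for the large subunit, had 16.9 ± 2.41, 29.3 ± 6.36 and 62.9 ± 12.05. Of the list's 55 members, 43 had the larger change in the rcoA deletion by the test, 0 in the clrB deletion, and 12 were not called. The same counts over all 2204 members were 1190, 87 and 927, and the test called 60.1% of all genes. Both differences reached 2-fold at 1 of the 52. The lower member with the highest mean was PDE_09027, described as U3 small nucleolar RNA-associated protein 12 and also as cyclohexanone monooxygenase. It had 1381 ± 124, 1059 ± 88.3 and 770 ± 193 and did not keep the order under at least 1 scaling.

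Translation factors and tRNA synthetases had 46 higher and 8 lower members of 131, 35.1% higher. The lower member with the highest mean was PDE_06482, described as an RNA interference protein and as translation initiation factor 2C. It had 89.9 ± 15.1, 68.7 ± 6.35 and 33.8 ± 0.81 FPKM. Elongation factor 1-gamma (PDE_01155) had 149, 151 and 144 FPKM in the wild type, 305, 162 and 233 in the clrB deletion and 275, 320.2 and 365 in the rcoA deletion. Its lowest deletion value, in clrB deletion replicate 2, was just above the wild type range. Ribosomal proteins themselves had 20 higher and 6 lower members of 166, 12% higher, near the 14.2% of all genes. A further 115 of them, 69.3%, had all 3 rcoA deletion libraries above the wild type while the clrB deletion libraries overlapped it, as did 18.4% of all genes. The number of higher members here depended on clrB deletion replicate 2, without which it was 64.

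Secretory genes had few members in either direction. Of 39 genes for folding and transport in the endoplasmic reticulum, 7 were lower and 5 higher. These are 17.9% and 12.8% against 9.99% and 14.2% of all genes. The higher count was 3 under trimmed mean scaling and equal medians and 4 after quantile normalization. Protein disulfide-isomerase (PDE_06215), which forms disulfide bonds in secreted proteins, had 399, 321 and 331 FPKM in the wild type, 319.9, 229.6 and 261 in the clrB deletion and 183, 214 and 231 in the rcoA deletion. HAC1 (PDE_01436), the transcription factor of the unfolded protein response, had 317 ± 58.8, 181 ± 30.2 and 240.1 ± 8.66 and did not keep the order under trimmed mean scaling or equal medians. IRE1 (PDE_04467), the sensor upstream of HAC1 and part of the kinase list, was a higher member at 98.8 ± 3.68, 111 ± 6.66 and 162 ± 10.9, and it did not keep the order under any of the 3 other scalings. Secreted proteases and peptidases had 6 higher and 5 lower of 44, 13.6% and 11.4%, near the shares over all genes. The deuterolysin PDE_07936, a secreted metalloprotease with the highest mean of that list's members, had 1321, 1425 and 1558 FPKM in the wild type, 6192, 2879.8 and 6752 in the clrB deletion and 3313, 2376 and 2662 in the rcoA deletion. The aspergillopepsin PDE_07344, an acid protease, was lower, at 253 ± 86.98, 63.98 ± 45.2 and 53.1 ± 24.5. The peptide transporter PDE_05534 was the only member of the 12 tested genes for amino acid, peptide and nitrogen uptake, and had 1521, 1563 and 1849.7 FPKM in the wild type, 562, 1215 and 609 in the clrB deletion and 173, 209 and 249 in the rcoA deletion. Of the 11 other genes in that list, 9 had the deletions on opposite sides of the wild type, 75% of the list against 7.26% of all genes.

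Genes acting on the fungus's own wall had 11 lower and 7 higher members of 74, 14.9% and 9.46% against 9.99% and 14.2% of all genes. The chitin-binding protein PDE_03292, also described as an alpha-1,3-glucanase, had 2373, 2040.4 and 2189.9 FPKM in the wild type, 228, 1971 and 295 in the clrB deletion and 296, 245 and 182 in the rcoA deletion. The clrB deletion mean was 2.65-fold lower, or 8.42-fold without replicate 2, and the rcoA deletion mean was 9.15-fold lower. The gene did not keep the order after quantile normalization. The putative beta-1,3-glucanase with the preceding identifier, PDE_03291, which is in no list, had 397, 399 and 391 FPKM in the wild type, 37.6, 239 and 54.6 in the clrB deletion and 44.3, 34.3 and 32.1 in the rcoA deletion. The chitinases differed among themselves. PDE_04898 was higher, at 155 ± 12.2, 408 ± 164 and 287 ± 12.5, and PDE_03698 was lower, at 58.5 ± 2.34, 22.9 ± 6.25 and 16.4 ± 2.82. The chitinase PDE_01779 had 4.42, 5.25 and 4.69 FPKM in the wild type, 40.4, 13.5 and 36.8 in the clrB deletion and 5.44, 5.88 and 5.65 in the rcoA deletion, so that it was 6.32-fold higher in the clrB deletion and 1.18-fold in the rcoA deletion.

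Genes for asexual development did not share one pattern. Of 5 tested genes for asexual development and pigment, 1 was a member, the Myb-like factor FlbD (PDE_03008), with 109, 207 and 220.1 FPKM in the wild type, 370.1, 242 and 356 in the clrB deletion and 321, 252 and 243 in the rcoA deletion. FlbD did not keep the order after quantile normalization. BrlA (PDE_00087), the regulator that starts spore formation, was not a member: it had 18.2, 27.9 and 28.5 FPKM in the wild type, 149, 33.4 and 121 in the clrB deletion and 13, 12.4 and 13.7 in the rcoA deletion. The melanin enzyme scytalone dehydratase PDE_04496 had 36.5, 56.1 and 43.4 FPKM in the wild type, 200.2, 44.98 and 152 in the clrB deletion and 0.54, 0.45 and 0.45 in the rcoA deletion. FlbD, BrlA and PDE_04496 were all lowest in replicate 2 of the clrB deletion libraries, and the other tested genes of the list were not. DIT1 (PDE_01188), for spore wall maturation, had 2.12, 3.4 and 6.37 FPKM in the wild type, 1.53, 3.97 and 1.36 in the clrB deletion and 25.8, 10.5 and 2.82 in the rcoA deletion, so that clrB deletion replicates 1 and 3 were its lowest of that strain. A second scytalone dehydratase, PDE_09236, had 2.79, 6.92 and 5.42 FPKM in the wild type. It had 4.69, 5.32 and 5.97 in the clrB deletion, within the wild type range, and 0, 0 and 0 in the rcoA deletion. The deuterolysin, the chitinase PDE_01779 and the naphtho-gamma-pyrone polyketide synthase PDE_09491, at 35.3, 14.4 and 36.9 FPKM in the clrB deletion and 2.98, 7.92 and 5.27 in the wild type, were also lowest in that replicate. Replicate 2 was the clrB deletion library nearest the wild type mean at 55.7% of all members, so this order was common among members. The part of sporulating cells in these values was not tested.

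Secondary metabolism had 9 higher and 2 lower members of 57, 15.8% and 3.51% against 14.2% and 9.99% of all genes. Of the lower ones, 6-hydroxytryprostatin B O-methyltransferase (PDE_09244) had 87.4, 122 and 128 FPKM in the wild type, 60.6, 50.9 and 64.5 in the clrB deletion and 0.05, 0.09 and 0.05 in the rcoA deletion, so that its rcoA deletion values were near 0. Brevianamide F synthase (PDE_07163), a peptide synthetase outside the list, had 20.8, 41.8 and 28.9 FPKM in the wild type, 88.02, 99.7 and 148 in the clrB deletion and 121, 122 and 117 in the rcoA deletion. It was a higher member whose deletion values overlapped. Of the 57 tested genes in the list, 24 that were not members had the rcoA deletion libraries alone below the wild type. That is 42.1% of the list against 24.1% of all genes.

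Amino acid breakdown and dioxygenases had 8 higher and 6 lower members of 54, 14.8% and 11.1%, near the shares over all genes. Indoleamine 2,3-dioxygenase (PDE_02454), which opens the ring of tryptophan, had 384, 397 and 337 FPKM in the wild type, 207, 261 and 258 in the clrB deletion and 0.42, 0.38 and 0.38 in the rcoA deletion. It was 1.54-fold lower in the clrB deletion, and its difference between the deletions was 7.44 (limma, adjusted p = 9.7e-10). Another indoleamine 2,3-dioxygenase, PDE_02071, was a higher member, at 32.1 ± 1.33, 59.04 ± 13.4 and 217 ± 7.73. Nitric oxide dioxygenase (PDE_01345), which converts nitric oxide to nitrate, had 50.2, 32.1 and 47.3 FPKM in the wild type, 86.2, 196 and 128 in the clrB deletion and 1344, 1871 and 1902 in the rcoA deletion. Its identifier stands in a run of 4 higher members, PDE_01344 to PDE_01347, of which the undescribed PDE_01346 had 233 ± 64.5, 536 ± 157 and 3014 ± 394 FPKM.

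Metal and ion transport had 10 lower and 6 higher members of 62, 16.1% and 9.68% against 9.99% and 14.2% of all genes. The zinc transporter PDE_05715 had 34.3, 37.8 and 44.8 FPKM in the wild type, 175, 286 and 208 in the clrB deletion and 868, 1155 and 1154 in the rcoA deletion, and the sulfate permease PDE_00892 had 71.6 ± 7.52, 174 ± 21.1 and 443 ± 82.2. DNA replication and histones had 17 lower and 10 higher of 79, 21.5% and 12.7% against the same shares of all genes. The core histones H4 (PDE_00232), H2A (PDE_01490) and H2B (PDE_01489) were lower in both deletions. H4 had 1141, 1107 and 1167 FPKM in the wild type, 868, 965 and 855 in the clrB deletion and 926, 789 and 825 in the rcoA deletion, 1.27-fold and 1.34-fold lower. H2A had 1087 ± 61.2, 825 ± 87.5 and 708 ± 80.7, and H2B had 1055 ± 31.6, 883 ± 66.7 and 760.2 ± 33.3. After quantile normalization H4 and H2B did not keep the order. The MCM genes, which unwind DNA, split, with PDE_02046, PDE_02839 and PDE_04343 higher and PDE_09895 lower.

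Shares in the remaining lists are read against 14.2% higher and 9.99% lower over all genes. Antioxidant defence had 6 higher and 4 lower of 61, 9.84% and 6.56%, with glutathione synthase (PDE_07454) among the lower members at 2688, 2486 and 2791 FPKM in the wild type, 1331, 1361 and 1480 in the clrB deletion and 1413, 1260 and 871 in the rcoA deletion. Proteasome and ubiquitin genes had 20 higher and 10 lower of 164, 12.2% and 6.1%, a balance that was 12 to 16 under trimmed mean scaling, 14 to 14 with equal medians and 16 to 16 after quantile normalization, with 39 higher without clrB deletion replicate 2. Fatty acid oxidation and peroxisome genes had 12 higher and 6 lower of 74, 16.2% and 8.11%. Cytochrome P450 genes had 2 and 2 of 22, 9.09% each, and protein kinases had 14 and 6 of 111, 12.6% and 5.41%. A pair of lower members outside the lists belongs to the breakdown of 4-aminobutyrate: the 4-aminobutyrate aminotransferase PDE_09301, at 1528 ± 161, 416 ± 141 and 221 ± 50.5 FPKM, and the succinate-semialdehyde dehydrogenase PDE_05599, at 437 ± 41.5, 122 ± 24.3 and 104 ± 15.1.

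**Figure D4:**
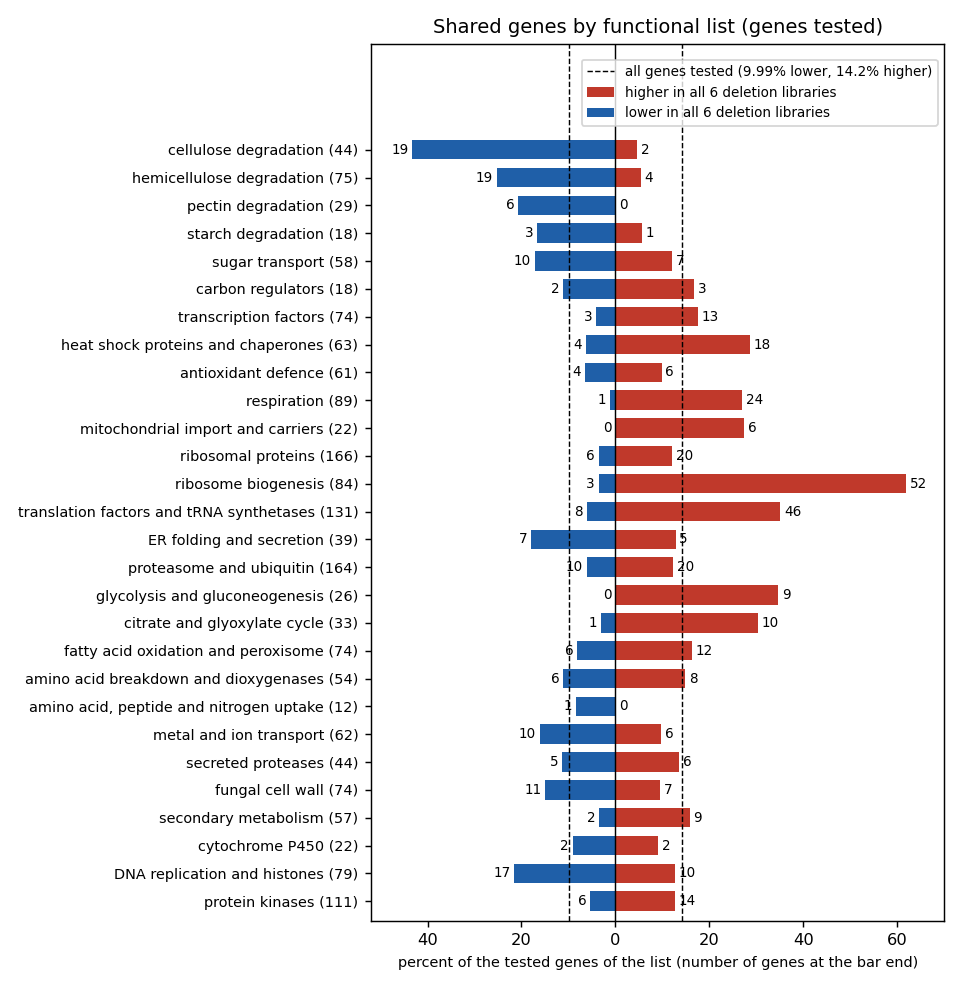
Percent of the tested genes of each functional list that were lower members (blue, left) or higher members (red, right), with the number of genes at the bar end and the number tested in brackets; the list with under 10 tested genes is not drawn. Dashed lines mark the shares over all genes tested, 9.99% lower and 14.2% higher, and ribosome biogenesis at 61.9% higher and cellulose degradation at 43.2% lower lie farthest from them.

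The deletions were then set against each other among the members. By limma on log2(FPKM + 1) with Benjamini-Hochberg adjustment over all 9097 genes, 1277 members had an adjusted p under 0.05 between the clrB and the rcoA deletion. That is 57.9% of members, near the 60.1% called over all genes. Of the called members, 570 were higher in the clrB deletion, where 35.2% of all genes were, and 707 were lower, where 24.9% were. The rcoA deletion lay farther from the wild type at 1190 of them and the clrB deletion at 87. The rcoA difference was the larger in size at 81% of all members, called or not, and at 74.9% of all genes tested. By the values alone, the clrB deletion libraries lay wholly between the wild type and the rcoA deletion at 1285 members, 58.3%. The rcoA deletion libraries lay wholly between at 121, 5.49%, and both deletions overlapped at 798, 36.2%. Over all genes tested, the clrB and rcoA deletion libraries lay apart without overlap at 65.5%, so such separation was not particular to the members. The 87 members with the larger clrB change depended on single libraries, becoming 149 when clrB deletion replicate 2 was left out, 51 when its replicate 3 was, and 55 when rcoA deletion replicate 2 was.

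**Figure D5:**
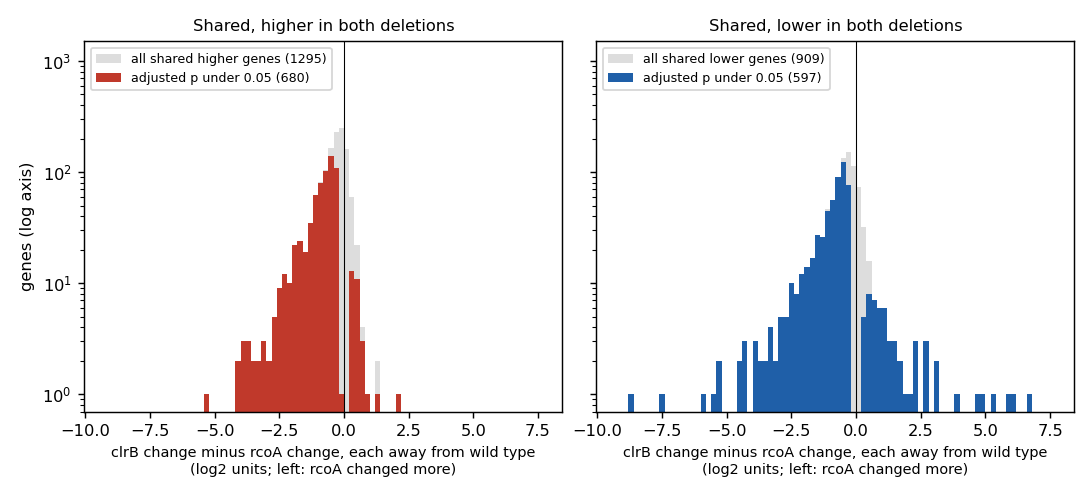
Difference in the size of change from the wild type (clrB change minus rcoA change, in log2 units, x axis) for the 1295 higher members (left panel) and the 909 lower members (right panel), with the number of genes on a log axis. Grey bars are all members and coloured bars the 680 and 597 with an adjusted p under 0.05, most of which lie left of 0, where the rcoA deletion lay farther from the wild type.

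The members with the most uneven changes were named by the same rule in each direction. Averantin hydroxylase (PDE_06327) had 566, 618 and 530.3 FPKM in the wild type, 477, 406 and 521 in the clrB deletion and 9.54, 9.05 and 10.2 in the rcoA deletion, so that it was 1.22-fold and 59.6-fold lower, and it did not keep the order after quantile normalization. The undescribed PDE_06609 had the widest difference between the deletions of any member, with 2212, 2067 and 2214 FPKM in the wild type, 851, 397 and 889 in the clrB deletion and 0.42, 0.68 and 0.5 in the rcoA deletion. At the other end, 927 members were not called between the deletions. A p that misses the threshold does not show that both strains were alike, and for the mannanase PDE_06023 the standard error of the difference was 0.16 and for the monooxygenase PDE_01261 it was 0.41 on the log2 scale.

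Many members have no description. A description was present for 76.3% of the higher members, 55.1% of the lower members and 61.5% of all genes tested. The members with the highest FPKM in each direction were undescribed. PDE_00509 had 13275, 12540.4 and 11417 FPKM in the wild type, 4147, 7142 and 4465 in the clrB deletion and 1035, 494 and 169 in the rcoA deletion. PDE_02650, the higher member with the highest mean over the 9 libraries, had 3962, 3681 and 3586 FPKM in the wild type, 7360.4, 6595 and 7608 in the clrB deletion and 5719, 5959 and 6081 in the rcoA deletion. PDE_08708 had 48.9, 75.2 and 67.5 FPKM in the wild type, 215, 411 and 305 in the clrB deletion and 1503, 1529 and 1551 in the rcoA deletion, and PDE_00227 had 0.33, 0.64 and 0.32 FPKM in the wild type, 3.96, 6.12 and 5.97 in the clrB deletion and 14.4, 21.2 and 34.1 in the rcoA deletion. The members were spread over the identifiers, with 1410 standing alone and the longest runs of consecutive identifiers in 1 direction holding 5 genes. One such run, PDE_00012 to PDE_00016, was lower throughout and held the putative xylanase PDE_00014, at 3.26 ± 0.43, 0.3 ± 0.0781 and 0.577 ± 0.223 FPKM, the arabinofuranosidase PDE_00015, at 45.4 ± 7.28, 18.7 ± 15.5 and 18.3 ± 5.19, and the arabinofuranosidase PDE_00016, at 119.9 ± 15.3, 50.95 ± 40.2 and 63.04 ± 12.6. The undescribed PDE_00012 of that run had 69.6 ± 7.73, 16.3 ± 2.51 and 11.6 ± 1.28, and PDE_00013 had 21.9 ± 1.43, 7.31 ± 1.06 and 2.64 ± 0.217. Identifiers were not placed on a genome here, so distances between these genes are not given.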

How the data were processed

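Messenger RNA was captured on oligo(dT), and the cDNA was cut with NlaIII and MmeI into short tags for sequencing, per the labels' protocols. The authors deposited FPKM per gene and library to 2 decimals, with gene descriptions. Aligner, read counting, lengths and build were not given in the sources used here. Tags come from a fixed site of a transcript while FPKM divides by length, so levels are compared mainly within a gene. Rankings by mean level, sums of FPKM and level minimums do run across genes and are uncertain for that reason. Another 3 per-library columns were not analysed here. The reference table, of assembly ASM172317v3 with 9964 genes, matched 0 of 9907 identifiers, so no coordinates or sequences are given.

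Values were used as deposited. Folds are ratios of mean FPKM, given where both means reached 1. Differences are on log2(FPKM + 1), pseudocount 1, which understates the change of low genes. The fit used limma 3.58.1 (R 4.3.3) on all 9 libraries with a mean per strain, an intensity trend and no covariate. The two-sided contrast of clrB deletion against rcoA deletion was the only test, adjusted over the 9097 genes with a mean of at least 1 FPKM at a threshold of 0.05. The fit was checked on simulated data. Both deletions share the wild type libraries, so no overlap or correlation between their differences from it was tested.

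Named genes had a functional description and reached a mean of 10 FPKM in some strain. They were the 10 higher and 10 lower members with the largest lesser change of both deletions, the 4 and 4 with the highest mean, the 3 in each direction with the largest called excess of either deletion, and the highest member of each of 29 lists in each direction. ClrB, XlnR, CreA and the TUP1 genes were added as a label check. Some genes named by these rules are not described above, among them PDE_00814, PDE_07428, PDE_09658 and PDE_04831. Other genes are named to fill out a list or run and were chosen after their values were seen. The members and lists were chosen with earlier results of these data known, and list patterns were tightened after the matched descriptions were read. Alternatives were other scalings, pseudocounts, level minimums, margins, array weights, a replicate block and each library left out.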

Additional observations from a re-analysis of the deposited data

Results flagged for a closer look

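In the test of the clrB deletion against the rcoA deletion, 12 described members are listed here, the 3 with the largest excess of one strain's change over the other's in each direction and for each strain, all with an adjusted p under 0.05 (limma, Benjamini-Hochberg over all genes). Values are clrB deletion minus rcoA deletion on log2(FPKM + 1). The genes were picked within those classes, so some members not listed differ by more than the smallest of these values.

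Among lower members with the larger change in the clrB deletion, the value was -6.69 for the cellodextrin transporter cdt-c (PDE_00607), -6.15 for Cel61A (PDE_05633) and -5.86 for the deleted gene ClrB (PDE_05999). Among lower members with the larger change in the rcoA deletion, it was 7.44 for indoleamine 2,3-dioxygenase (PDE_02454), 5.80 for 6-hydroxytryprostatin B O-methyltransferase (PDE_09244) and 5.46 for averantin hydroxylase (PDE_06327).

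Among higher members with the larger change in the rcoA deletion, the value was -5.29 for trans-2-enoyl-CoA reductase (PDE_07004), -4.18 for the alternative oxidase (PDE_08849) and -3.86 for ClpB (PDE_00624). Among higher members with the larger change in the clrB deletion, it was 2.09 for the chitinase PDE_01779, 1.24 for the polyketide synthase PDE_09491 (adjusted p = 0.0254) and 0.84 for the deuterolysin PDE_07936 (adjusted p = 0.0397). In these last 3, clrB deletion replicate 2 was the lowest library of its strain, and PDE_09491 and PDE_07936 lost the call in at least 1 of the alternatives.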

How the results depend on the processing

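The membership rule has no margin, and most members do not survive one. Requiring the nearest deletion and wild type values to differ by 1.5 times left 78 higher and 126 lower genes, and 2 times left 30 and 47. The 3 other scalings gave 1040, 1150 and 1126 higher and 1134, 1049 and 1032 lower genes (trimmed mean factors, equal medians, quantile normalization). Leaving out 1 library relaxes the rule and gave 1317 to 1822 higher and 914 to 1339 lower genes. For the members called between the deletions, 471 to 589 were higher and 571 to 702 lower in the clrB deletion with 1 library left out. The rcoA change was larger at 987 to 1174 and the clrB change at 51 to 149. With array weights the last count was 256, and that fit, with weights from the gene-by-gene method, gave rcoA deletion replicate 2 a weight of 10.2.

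The same replicate number in 2 strains did not pair libraries: correlations of deviations from the strain means ran from -0.161 to 0.341. With the replicate block, 557 members were called higher and 684 lower in the clrB deletion. All 78 named members kept the sign of their mean change in the alternatives that gave one. The rule puts every deletion value of a member on the same side of every wild type value. Leaving out a library or changing the minimum level therefore could not reverse that sign. The other scalings could have reversed it, and for the named members they did not. However, 17 of the 78 did not keep the order under at least 1 scaling, and 48 did not meet the margin of 1.5 times. Of 55 named members called between the deletions, 45 kept the call in every alternative fitted and 0 changed sign. List counts by scaling, and those without clrB deletion replicate 2, were chosen after seeing the data. The unknown depth leaves the precision of low values unknown.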
